A study of Mus musculus with 25 samples.

Results

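Loops between 2 intergenic bins under 100 kb apart were H3K27ac HiChIP contacts between bins outside protein-coding genes. Whether each anchor carries the mark was not examined on its own. They were pairs of 1 kb bins listed in each of 6 H3K27ac HiChIP libraries, with start positions less than 100 kb apart and with no protein-coding gene of the mm10 annotation overlapping either bin. The rule kept 4345 loops, 15.5% of the 28033 loops listed in all 6 libraries and a part of the 121571 listed in any. All cells were CD8+ T cells from the spleens of C57BL/6J mice, pre-activated over 2 days and then rested over 4 h, with IL-2 added or not (control). Mice lacked a piece of an Il2ra intron (intron deletion) or a piece of DNA upstream of Il2ra (upstream deletion), or were wild type (WT). HiChIP ligates chromatin in place, pulls ligated fragments down with an antibody, here against acetylated lysine 27 of histone H3, and counts read pairs that join 2 bins. There was 1 library for each combination of genotype and treatment, so a treatment had 3 libraries and a genotype 2. The sources used here do not give the IL-2 dose or time, the ends of the deletions, or how many animals or cultures stand behind a library. No genotype and treatment has a repeat. The p-values below therefore weigh an effect against how far the 6 libraries depart from additive effects of genotype and treatment. That spread may be technical.

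H3K27ac marks active promoters and enhancers, and an enhancer can be brought next to its target promoter by folding of the intervening DNA. Bins outside protein-coding genes hold distal enhancers, long non-coding RNA (lncRNA) genes, microRNA genes and, in lymphocytes, the gene segments of the antigen receptor loci. IL-2 signals in CD8+ T cells through the kinases JAK1 and JAK3 and the transcription factor STAT5, which binds enhancers of genes for effector function and for feedback control such as Cish and Socs1. Il2ra encodes CD25, the receptor alpha chain that gives high affinity for IL-2. The nearest protein-coding gene is used below to name a loop, and nothing in these data shows that it is the gene the loop acts on.

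Of the 2817 bins that anchored these loops, 1852 (65.7%) overlapped no annotated gene of any kind and 823 (29.2%) overlapped a lncRNA gene. Segments of the antigen receptor loci lay in 53 anchor bins, transfer RNA genes in 38 and microRNA genes in 7. Mature microRNAs are shown for the 3 of these bins that hold well-studied microRNAs, because they are the clearest transcripts with a known product at the foot of an intergenic loop. The sequences are from RefSeq (GRCm38.p6), written 5′ to 3′ with the seed, bases 2 to 8, in capitals.
miR-142a-5p (chromosome 11, plus strand): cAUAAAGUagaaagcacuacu
miR-142a-3p (chromosome 11, plus strand): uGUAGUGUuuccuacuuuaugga
miR-23a-3p (chromosome 8, plus strand): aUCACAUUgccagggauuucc
miR-27a-3p (chromosome 8, plus strand): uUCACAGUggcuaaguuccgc
miR-24-3p (chromosome 8, plus strand): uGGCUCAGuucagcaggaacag
miR-193a-5p (chromosome 11, plus strand): uGGGUCUUugcgggcaagauga
No 2 of these 6 share a seed. The bin at chr11:87756001-87757000 holds Mir142, a microRNA gene active throughout blood cells. Mir23a, Mir27a and Mir24-2 form a cluster that lies within the single bin chr8:84208001-84209000, and Mir193a lies in chr11:79711001-79712000.

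A total of 93 lncRNA genes had a start inside an anchor bin, with 106 RefSeq promoter windows (250 bases before to 50 after a start) that overlap in genes with several starts. A gene was counted once, when any of its windows held a motif. The promoter windows were searched on both strands for 3 motifs: TTCNNNGAA, bound by STAT factors, TGANTCA, a looser form of the AP-1 site TGA(C/G)TCA, and TGTGGTT, bound by RUNX factors. TGANTCA also matches TGAATCA and TGATTCA, so its counts are not of AP-1 sites alone. The STAT motif was in 10 of the 93 genes (10.8%), against 9.55% of all 27025 genes with a promoter window. TGANTCA was in 14 (15.1%), against 8.97% of all, and the RUNX motif in 9 (9.68%), against 6.09%. A match is a run of letters and not a measured binding site. The windows shown are those of 2 lncRNA genes whose loops changed with IL-2 and of Gm46412. The last holds a STAT motif and the TGANTCA match TGAATCA, which is not the AP-1 site itself. Motif letters are in capitals.
Gm39265 (chr8:120700831-120701130, minus strand): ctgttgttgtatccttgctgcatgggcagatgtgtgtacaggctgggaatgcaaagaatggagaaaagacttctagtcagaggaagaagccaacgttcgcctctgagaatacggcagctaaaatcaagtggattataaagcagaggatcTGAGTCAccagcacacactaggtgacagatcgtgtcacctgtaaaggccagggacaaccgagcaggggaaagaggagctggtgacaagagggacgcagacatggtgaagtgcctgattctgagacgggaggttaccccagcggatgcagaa
Gm19497 (chr1:134060898-134061197, minus strand): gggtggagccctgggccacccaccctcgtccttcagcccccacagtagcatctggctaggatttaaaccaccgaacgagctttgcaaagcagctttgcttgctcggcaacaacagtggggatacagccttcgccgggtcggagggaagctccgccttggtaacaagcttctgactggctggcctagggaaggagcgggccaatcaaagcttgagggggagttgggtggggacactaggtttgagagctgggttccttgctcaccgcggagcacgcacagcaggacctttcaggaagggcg
Gm46412 (chr13:46734853-46735152, plus strand): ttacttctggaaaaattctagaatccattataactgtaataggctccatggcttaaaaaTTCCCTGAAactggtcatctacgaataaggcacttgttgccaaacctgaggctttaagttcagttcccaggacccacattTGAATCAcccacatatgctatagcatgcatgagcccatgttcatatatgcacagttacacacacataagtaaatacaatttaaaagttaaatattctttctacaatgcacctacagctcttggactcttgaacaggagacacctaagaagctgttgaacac
Gm39265 lies between Cox4i1 and Irf8, Gm19497 between Fmod and Btg2, and Gm46412 next to Nup153. None of the 3 motifs occurs in the Gm19497 window.

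The loops were short and clustered. Their median start distance was 10 kb (interquartile range 7 to 17 kb, longest 99 kb). There were 2057 loops of 5 to under 10 kb, 1424 of 10 to under 20 kb, 702 of 20 to under 50 kb and 162 of 50 to under 100 kb, and the median over loops of the mean contact count per library was 45.2, 41.7, 37.2 and 35.2 in these classes. An anchor bin lay a median of 13.0 kb from the nearest protein-coding gene (interquartile range 4.81 to 34.8 kb, farthest 531 kb). At the limit of the rule, 7 loops of 95 to under 100 kb had a median of 35.5 contacts and 11 intergenic pairs of 100 to under 105 kb had 45.3. A neighbourhood is here the stretch between 2 adjacent protein-coding genes, named by both. Both anchors lay in the same neighbourhood in 3979 loops (91.6%), and 366 loops spanned at least 1 whole gene. The first anchors fell into 436 neighbourhoods, of which the 10 fullest held 1410 loops (32.5%) and 138 held a single loop. Loops of a neighbourhood share anchor bins and are not independent of each other.

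Listing in every library set a floor for these loops. Each table starts at 20 contacts, 20949 intergenic pairs under 100 kb were listed in at least 1 library, and 2089 were listed in 5 of 6. Of those 2089, 1400 (67.0%) were missing in the intron-deletion control, the library with the fewest listed contacts (1314137, against 1965388 to 3596995 in the others). The median loop had 46 contacts in the IL-2 library of the intron deletion and 32 in its control, 41 and 39 in the upstream deletion, and 52 and 43 in WT. In 2388 loops (55.0%) the lowest library held under 30 contacts. Intergenic loops carried between 15.9% and 16.4% of the contacts of all shared loops in each library. Contacts were therefore compared after scaling to the shared loops, with scale factors from 0.772 for the intron-deletion control to 1.22 for the WT IL-2 library.

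The targeted locus shows what the rule leaves out. No loop had Il2ra as its nearest gene. The stretch between Rbm17 and Il2ra held 100 intergenic pairs in any library, 17 of them in the IL-2 library and 3 in the control of intron-deletion cells, 5 and 0 in upstream-deletion cells, and 99 and 34 in WT. Their listed contacts summed to 416 and 63 in intron-deletion cells, 150 and 0 in upstream-deletion cells, and 3358 and 946 in WT. These sums are not scaled for depth, and a shallower library lists fewer pairs. Bins in the piece removed upstream of Il2ra cannot be listed in that deletion, and its ends are not given here. Pairs that are listed in WT and sink below 20 contacts in a deletion cannot be members, so losses at Il2ra itself are outside the loops described here. Among marker genes of CD8+ T cells, 5 of 8 (Cd8a, Cd8b1, Cd2, Cd5 and Lck) were nearest to 118 loops, and no marker of CD4+ or regulatory T cells, B cells or erythroid cells was nearest to any. Klrb1c, an NK cell marker, was nearest to 13 loops and Tyrobp, a myeloid marker, to 3.

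The strongest intergenic loop lay in a T cell receptor locus. The loop with the highest mean contacts joined the bin of the constant segment Trbc2 at chr6:41547001-41548000 to a bin 6 kb farther on, between Trbc2 and Trbv31, inside the Tcrb locus. It had 513 and 340 contacts in the IL-2 and control libraries of intron-deletion cells, 335 and 369 in upstream-deletion cells, and 365 and 361 in WT. Within Tcra, the strongest loop joined the joining segment Traj7 (chr14:54211001-54212000) to a bin 8 kb away next to Trac, with 235 and 150, 223 and 212, and 296 and 246 contacts in the same order. Other strong loops lay between Supt4a and Tspoap1, upstream of Mir142, near Chd2, a chromatin remodeller, near Junb, an AP-1 subunit, near Dusp2, a phosphatase that switches off MAP kinases, and near Actb, the gene of beta-actin.

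A total of 503 loops had an anchor in Tcra or Tcrb. With IL-2, 0 of them passed the threshold (edgeR adjusted p below 0.05), against 3.3% of all shared loops, 21 had an unadjusted p below 0.05, and DESeq2 called 0. Their median log2 fold change with IL-2 was 0.001. The neighbourhood that ends at Dad1 and holds Tcra had the most loops of all, 369, whose scaled contacts summed to 21218, 22390 and 22928 in the IL-2 libraries of the intron deletion, the upstream deletion and WT, against 20314, 21928 and 22793 in their controls. In the intron deletion 15 of the 503 loops rose (2.98%) and 20 fell (3.98%) relative to WT, against 6.27% and 5.03% of all shared loops. Calls were also counted by the neighbourhoods that hold the loci, which are not the same set as the 503 loops. The 139 loops of the Tcrb neighbourhood had 12 rises and 1 fall, with a median log2 of 0.19. The 369 of the Tcra neighbourhood had 5 rises and 19 falls, with a median of -0.13. Without single libraries the rises at Tcrb ranged from 0 (without the WT IL-2 or the intron-deletion IL-2 library) to 22 (without the intron-deletion control), and the falls at Tcra from 0 (without the WT IL-2 library) to 13.

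A small group of intergenic loops rose with IL-2 and a smaller group fell. Of the rises, 48 were nearest to genes on a list of IL-2 and STAT5 targets, chosen with earlier results of these data known. With IL-2, 135 of the 4345 loops rose (3.11%) and 33 fell (0.759%), where 2.56% of all 28033 shared loops rose, 0.731% fell and 3.3% passed the threshold in either direction. The share of members called was thus near the background. The rises ranged from 0.40 to 1.16 on the log2 scale and the falls from -0.41 to -1.05. Of the 135 rises 121 and of the 33 falls 30 went the same way in all 3 genotypes. Loops were called from the same libraries, so this agreement is not independent support. The median log2 fold change was 0.018 over these loops and -0.0003 over all shared loops. Rises lay in 40 neighbourhoods and falls in 21, with 1 neighbourhood in both. The 6 neighbourhoods with the most rises held 75 of the 135.

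**Figure D1:**
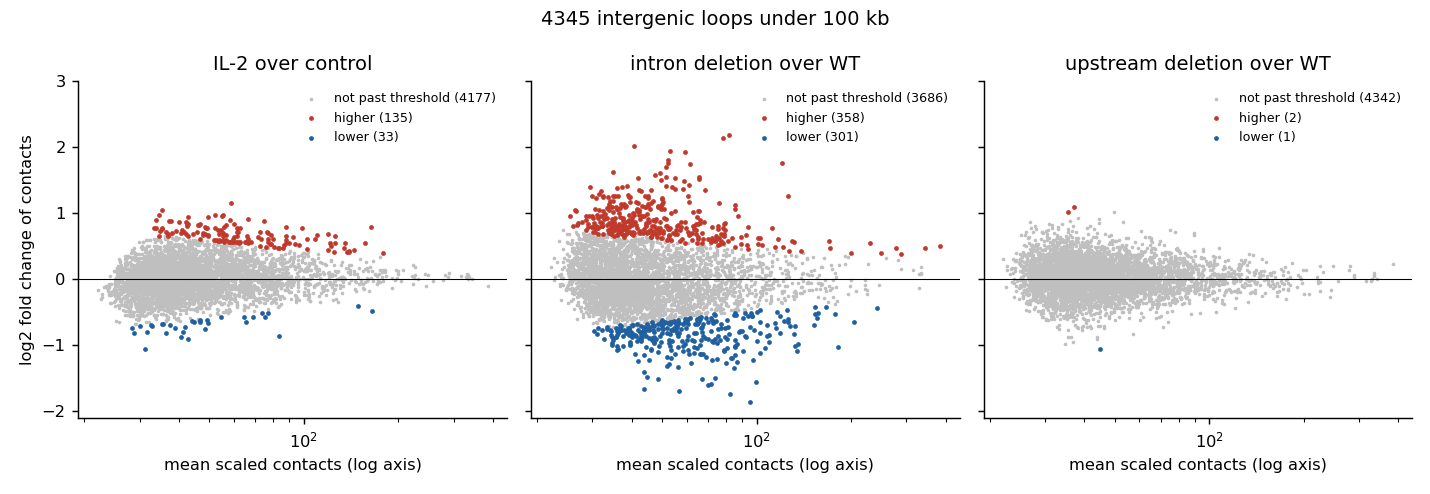
Each point is an intergenic loop; the x axis gives its mean scaled contacts per library (log axis) and the y axis its log2 fold change, for IL-2 over control, intron deletion over WT and upstream deletion over WT. Red and blue points passed the threshold (135 and 33, 358 and 301, and 2 and 1), and the intron deletion panel has the widest spread.

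These IL-2 counts depend on which libraries and which scaling are used. Here and below, counts under the alternatives are for intergenic loops and their anchors only, without the shares of all shared loops or bins. A genotype left with a single library has no treatment partner, so its IL-2 response drops out of the fit. Leaving out a library therefore bases the IL-2 comparison on the other genotypes. Without the IL-2 or the control library of the intron deletion, 236 loops rose and 90 fell. Without the WT IL-2 or the WT control library 4 rose and 1 fell, without the upstream-deletion IL-2 library 10 rose and 2 fell, and without its control 9 rose and 1 fell. Scaling to all listed contacts, which moved the median of all shared loops by -0.29, gave 4 rises and 243 falls, and DESeq2 called 0 loops in either direction.

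Loops without any annotated gene at either anchor made up most of the rises. Of 1925 such loops, 109 rose and 9 fell with IL-2 (6.13% called, against 3.3% of all shared loops), with a median log2 of 0.070. By their first anchors the 109 rises lay in 27 neighbourhoods, and loops of a neighbourhood share anchors. Of the 1813 loops with an anchor in a lncRNA gene, 22 rose and 23 fell, with a median of -0.023. The 2 sets were not tested against each other.

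The loop next to Pim1, the gene of a serine/threonine kinase induced by STAT5, had the largest rise with IL-2 of any intergenic loop. It joins chr17:29500001-29501000 to chr17:29506001-29507000, 3.89 and 9.89 kb from Pim1, and had 50, 97 and 112 contacts in the IL-2 libraries of the intron deletion, the upstream deletion and WT, against 45, 25 and 27 in their controls. The raw counts of the 2 treatments did not overlap, but after scaling for depth the intron deletion had 45.8 with IL-2 and 58.3 in its control, the reverse of the other genotypes. The fold was 2.23 (log2 1.16 ± 0.18 SE, adjusted p = 1.74e-07 in edgeR). It comes from a fit that assumes the same IL-2 effect in each genotype, which this loop did not show.

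Lta, which encodes the cytokine lymphotoxin alpha, stands in the same group. A 12 kb loop between Lta and Nfkbil1 (chr17:35206001-35207000 to chr17:35218001-35219000) had 41, 44 and 71 contacts with IL-2, against 22, 20 and 21 in the controls, in the genotype order above. Every IL-2 library was above every control, and the log2 fold change was 1.05 ± 0.21 SE (edgeR adjusted p = 1.82e-04). The controls were near the listing floor of 20. All 9 loops of the Lta neighbourhood had a log2 fold change above 0 and 5 of them rose. That count was 0 without either WT library or the upstream-deletion control, 1 without the upstream-deletion IL-2 library or with scaling to all listed contacts, and 7 without either intron-deletion library.

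Other large rises lay near Arid5a, an RNA-binding regulator of cytokine transcripts (log2 0.98), Mllt6 (0.98), Nabp1, a single-stranded DNA binding protein (0.97), Map3k8, a MAP kinase kinase kinase (0.94), 1810013L24Rik (0.90), Fasl, the death ligand of killer T cells (0.88), and between Glb1 and the chemokine receptor gene Ccr4 (0.86). The loop near Arid5a had 86, 73 and 79 contacts with IL-2 in the intron deletion, the upstream deletion and WT. Its controls held 30, 38 and 33, with no overlap. In the same order, the controls held 22, 20 and 21 contacts near Mllt6 and 22, 22 and 20 near 1810013L24Rik. These lie near the listing floor of 20, below which a pair is not a member. The loop near Nabp1 had 47, 94 and 81 contacts with IL-2, against 23, 28 and 46. In raw counts the WT control lay close to the lowest IL-2 library, that of the intron deletion. After scaling for depth the WT control was slightly above that library.

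**Figure D2:**
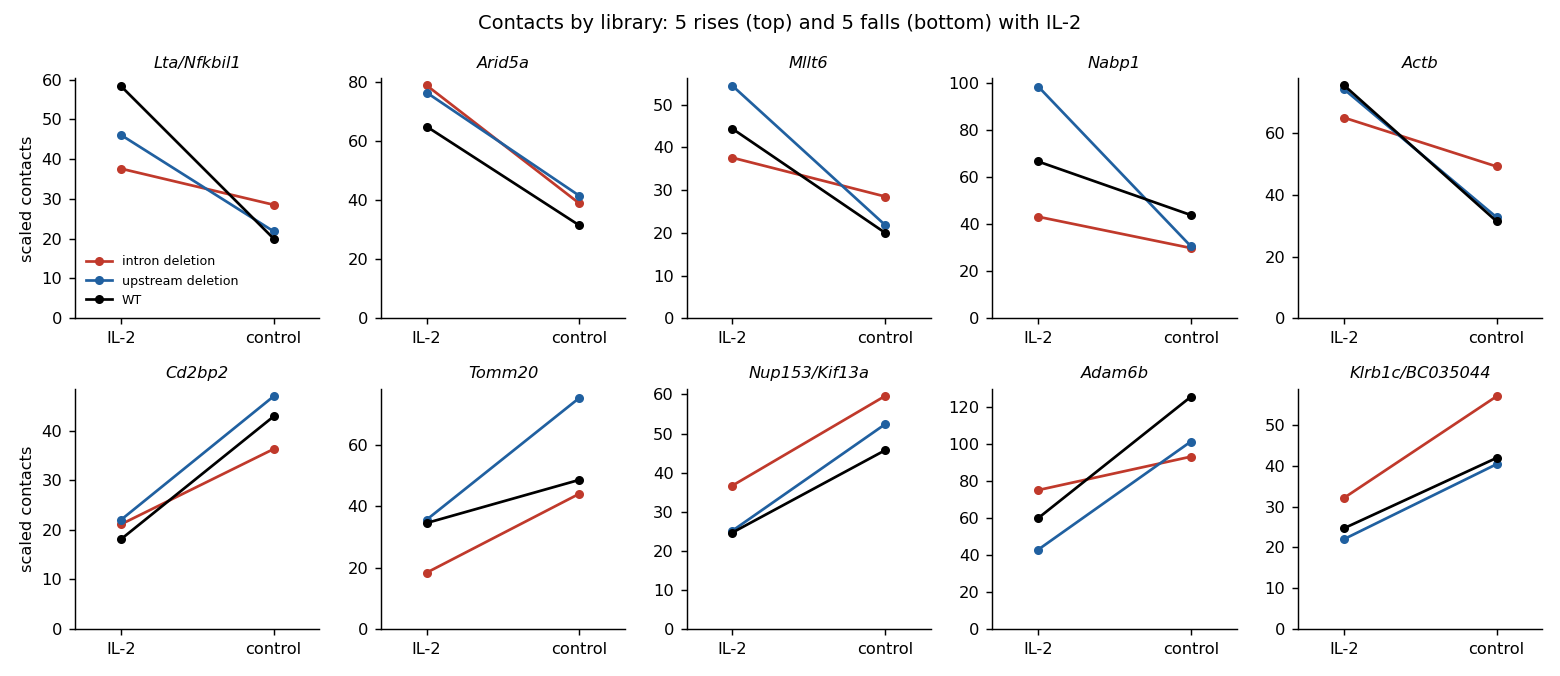
Scaled contacts (y axis, from 0) of 5 loops that rose (top row) and 5 that fell (bottom row) with IL-2; each line joins the IL-2 and the control library of a genotype, and titles give the nearest genes. The lines of the top row slope down toward control in each genotype and those of the bottom row slope up.

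The Actb neighbourhood, between Actb and Fscn1, an actin-bundling protein, held the most IL-2 rises. Its 86 loops had 26 rises and 0 falls with IL-2, 84 had a log2 fold change above 0, and the median was 0.42. Their scaled contacts summed to 5904, 6995 and 7187 in the IL-2 libraries of the intron deletion, the upstream deletion and WT, against 5435, 4645 and 4740.2 in the controls. The step was smallest in the intron deletion. The loop with the largest rise there (chr5:142923001-142924000 to chr5:142930001-142931000, 15.0 and 22.0 kb from Actb) had 71, 71 and 92 contacts with IL-2 and 38, 30 and 33 in the controls (log2 0.95 ± 0.18 SE, edgeR adjusted p = 6.24e-05). The strongest loop there, of 20 kb, had 205, 203 and 254 contacts with IL-2 and 128, 147 and 144 in the controls, a log2 fold change of 0.40. The count of 26 fell to 1 without either WT library, to 4 without either upstream-deletion library, was 45 without either intron-deletion library, and was 0 with scaling to all listed contacts (median 0.13).

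The next neighbourhoods by number of rises lay near Cish, Gzmb, Socs1, Rbpj and Il4ra. On the 2 sides of Cish, which encodes a STAT5-induced inhibitor of cytokine signalling, 14 of 36 loops toward Hemk1 and 6 of 20 toward Mapkapk3 rose, with medians of 0.43 and 0.46 and no fall. Near Gzmb, the gene of the killer protease granzyme B, 12 of 77 loops rose and 75 were above 0, and scaled contacts summed to 4095, 5053 and 5124 with IL-2, against 3629.9, 3562 and 3747 in the controls. Between Clec16a and Socs1, another inhibitor of JAK signalling, 9 of 55 loops rose (median 0.33). Between Smim20 and Rbpj, 8 of 52 rose (median 0.24), with 0 rises without any WT or upstream-deletion library, 15 without either intron-deletion library, and 0 rises and a median of -0.015 with scaling to all listed contacts. Between Il4ra and Il21r, which encode 2 cytokine receptors that share the gamma chain with the IL-2 receptor, 6 of 24 rose and all 24 were above 0. Without a WT or an upstream-deletion library each of the other 5 neighbourhoods had 0 or 1 rises, with medians from 0.18 to 0.48, and with scaling to all listed contacts 0 rises, with medians from 0.01 to 0.18.

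Falls with IL-2 were fewer and more scattered. The largest lay near Cd2bp2, which binds the tail of the CD2 receptor: its loop had 23, 21 and 22 contacts with IL-2 in the intron deletion, the upstream deletion and WT, against 28, 43 and 45 in the controls (log2 -1.05 ± 0.20 SE, edgeR adjusted p = 2.70e-04). All 3 IL-2 libraries were near the listing floor of 20, which limits how far a fall of a member can go. A loop within the immunoglobulin heavy chain locus, with an anchor at the D segment Ighd4-1 (chr12:113425001-113426000 to chr12:113430001-113431000), had 82, 41 and 73 contacts with IL-2 against 72, 93 and 132 in the controls (log2 -0.86 ± 0.15 SE). After scaling for depth it was lower with IL-2 in each genotype.

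Other falls included loops near Tnfaip3, the NF-kB inhibitor A20 (log2 -0.80), between Fmod and Btg2, an antiproliferative gene (-0.79), between Tcf7, the memory T cell factor TCF-1, and Vdac1 (-0.74), near Zfp36l2, which promotes decay of transcripts (-0.74), and near Cd69, an early activation marker (-0.81). The loop between Fmod and Btg2 had 49, 27 and 23 contacts with IL-2, against 48, 37 and 55, lower in each genotype after scaling, and in that neighbourhood all 7 loops were below 0 and 3 fell. Between Tnfaip3 and Olig3 all 23 loops were below 0 with IL-2, 3 fell, and the median was -0.40; the lncRNA gene Gm20139 lies in that stretch. Between Irf2bp2 and Tomm20, where the lncRNA gene Gm31718 lies, 4 of 180 fell and the median was -0.20. Without any of the WT or upstream-deletion libraries the falls in these 3 neighbourhoods were 0 or 1, and without either intron-deletion library they were 3 at Btg2, 8 at Tnfaip3 and 12 at Tomm20. Set against anchor coverage, the 3 medians were above 0 (0.23, 0.32 and 0.11).

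The lncRNA promoters shown above sit at some of these loops. The Gm39265 anchor had 7 loops, of which 3 rose with IL-2 and 3 fell in the intron deletion. The loop from Gm39265 to the bin 16 kb toward Irf8, the gene of an interferon regulatory factor, had 45, 58 and 92 contacts with IL-2 in the intron deletion, the upstream deletion and WT, against 27, 23 and 43 in the controls (log2 0.82 ± 0.20 SE). The Gm19497 anchor had 4 loops, 1 of which fell with IL-2 while 3 rose in the intron deletion. The 2 loops of the Gm46412 anchor did not pass the threshold with IL-2, and both rose in the intron deletion.

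Among the microRNA anchors, the loop of 7 kb between a bin near Gm11205 and the bin of Mir193a rose with IL-2: it had 57, 75 and 101 contacts with IL-2, against 40, 39 and 50 in the controls (log2 0.60 ± 0.17 SE, edgeR adjusted p = 0.0207). The loop that ends at Mir142 had 42, 37 and 56 contacts with IL-2, against 21, 37 and 47 (log2 0.13 ± 0.20 SE), and did not pass. The 38 loops of its neighbourhood between Supt4a and Tspoap1 summed to 6945, 7135 and 7177 scaled contacts with IL-2, against 6600.1, 6769 and 7288 in the controls. The 3 loops that end at the Mir23a cluster had log2 fold changes between -0.18 and 0.25 with IL-2, none past the threshold, and 1 of them, which starts at chr8:84201001, fell in the intron deletion (39 and 24 contacts in the intron deletion, against 65 and 57 in WT; log2 -0.68 ± 0.24 SE).

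Loops were also counted by lists of genes with a shared function, beside a median IL-2 log2 fold change of -0.0003 over all shared loops, of which 2.56% rose and 0.731% fell. The lists were chosen with earlier results of these data known, so their counts are not independent support. Of 25 direct targets of IL-2 and STAT5, 10 were nearest to 263 loops, of which 48 rose with IL-2 and 1 fell, with a median log2 of 0.37. The rises lay at Cish (20), Gzmb (12), Socs1 (9), Lta (4), Pim1 (2) and Tnfrsf18 (1), and the fall at Mcl1, an anti-apoptotic gene. Of 21 cytotoxic effectors, cytokines and chemokines, 4 were nearest to 89 loops, with 17 rises (Fasl, Gzmb and Lta), 0 falls and a median of 0.40, and these share Gzmb and Lta with the first list. Of 27 genes for cytokine receptors, kinases and STATs, 7 were nearest to 109 loops, with 8 rises (Ifngr1, Il21r, Il4ra and Il7r) and 1 fall (Il6st).

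Other lists had few calls with IL-2, and shares near those of all shared loops (2.56% up, 0.731% down) are no result about a list. A loop near Rasgrp1, a Ras activator in T cell receptor signalling, rose. Genes of activation and checkpoints had 1 rise and 1 fall, both near Cd69, among 201 loops. Naive and memory genes had 3 rises (Il7r and Satb1) and 1 fall (Tcf7) among 130, and effector transcription factors 5 rises, all near Irf8, among 100. NF-kB and stress feedback genes had 2 rises (Dusp4 and Nfkb1) and 5 falls (Tnfaip3 and Zfp36l2) among 206, and growth and survival genes 2 rises (Pim1) and 4 falls (Btg2 and Mcl1) among 76. The 25 loops at AP-1 genes (Junb and Jund) and the 7 at trafficking genes had no call with IL-2 in edgeR or DESeq2, with 1 and 0 loops at an unadjusted p below 0.05.

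**Figure D3:**
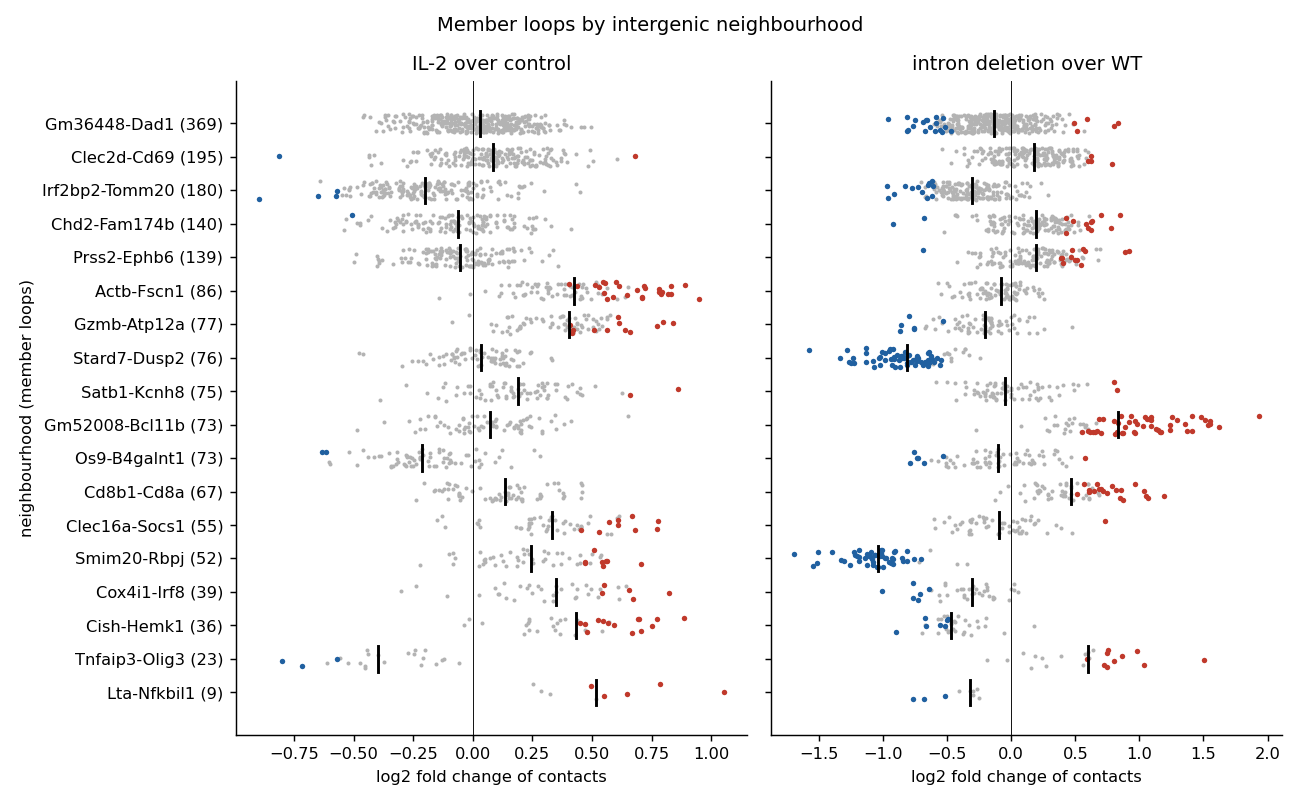
Each point is a loop, placed by the log2 fold change of its contacts (x axis) for IL-2 over control and intron deletion over WT; rows are neighbourhoods with their number of loops, black ticks are medians, and red and blue points passed the threshold. Medians stand right of 0 with IL-2 at Actb, Gzmb and Cish, and in the Dusp2, Rbpj and Gm52008 rows they stand far from 0 in the intron deletion.

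More intergenic loops passed the threshold for the intron deletion than for IL-2. Relative to WT, 358 rose (8.24%) and 301 fell (6.93%), where 6.27% of all shared loops rose, 5.03% fell and 11.3% passed the threshold in either direction. Among loops inside a single gene 7.78% rose and 3.62% fell, and among loops between 2 gene ends 1.33% rose and 3.41% fell; these classes differ in distance and in shared anchors and were not tested against each other. The rises reached 2.18 and the falls -1.85 on the log2 scale. Of the rises 355 and of the falls 301 went the same way with IL-2 and without it. The calls rest on these same libraries, so this agreement is not independent support. Rises lay in 90 neighbourhoods and falls in 78, with 10 in both. Scaling to all listed contacts, which moved the median of all shared loops by 0.37, gave 930 rises and 47 falls. Without the WT IL-2 library 86 rose and 74 fell, without the WT control 167 and 125, and without the intron-deletion IL-2 library 118 and 97. DESeq2 called 26 rises and 25 falls.

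The largest rise lay near Fam240a (chr9:110908001-110909000 to chr9:110917001-110918000), with 190 and 124 contacts in the IL-2 and control libraries of the intron deletion, against 42 and 42 in WT; the upstream deletion had 32 and 45. The fold over WT was 4.53 (log2 2.18 ± 0.18 SE, edgeR adjusted p = 1.23e-28). Near Slc6a19, an amino acid transporter gene, a 6 kb loop had 175 and 117 contacts in the intron deletion, against 33 and 48 in WT (log2 2.14 ± 0.19 SE). In both loops the intron-deletion libraries stood above all 4 others. Further rises lay near 4933412E24Rik (2.02), Gm52008 (1.93), between Ankrd55 and Il6st, the gene of the shared receptor chain gp130 (1.75), near Lyst, a regulator of lytic granules (1.70), near Peli1, a ubiquitin ligase (1.58), and near Olig3 (1.50).

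The loop near Klrb1c rose with little change in the coverage of its anchors. It joins chr6:128760001-128761000 to chr6:128799001-128800000 and had 271 and 176 contacts in intron-deletion cells, 59 and 39 in upstream-deletion cells and 80 and 80 in WT (log2 1.75 ± 0.15 SE against WT, edgeR adjusted p = 1.21e-26). The coverage of its 2 anchors changed by 0.24 and -0.15 on the log2 scale, whereas at the Fam240a loop both anchors gained 1.79 and 1.67.

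Whole neighbourhoods moved in the intron deletion. In the stretch from Gm52008, the nearest gene of all its loops, toward Bcl11b, which encodes a transcription factor that fixes T cell identity, 49 of 73 loops rose, 72 were above 0 and the median log2 was 0.83; scaled contacts summed to 4717 and 4516 in intron-deletion cells, 2775 and 2601 in upstream-deletion cells, and 2546 and 2431 in WT. Between Stard7 and Dusp2, 63 of 76 loops fell, all 76 were below 0 and the median was -0.81, with sums of 4350.2 and 4345 in intron-deletion cells, 7349.5 and 7165 in upstream-deletion cells, and 7501 and 7392 in WT. Between Smim20 and Rbpj, the nuclear effector of Notch signalling, 48 of 52 loops fell (median -1.04), with sums of 1879.85 and 1836 in intron-deletion cells, 4262 and 3386 in upstream-deletion cells, and 4332 and 3395 in WT. Between the coreceptor genes Cd8b1 and Cd8a 20 of 67 loops rose and none fell (median 0.47). In these 4 neighbourhoods the medians kept their direction without each library in turn and with the DESeq2 size factors or listed totals, and turned round when contacts were set against anchor coverage; without single libraries the counts were 21 to 44 at Gm52008, 22 to 61 at Dusp2, 20 to 47 at Rbpj and 2 to 18 at Cd8a. The lowest count came without the WT IL-2 library in each, and at Rbpj also without the intron-deletion IL-2 library.

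**Figure D4:**
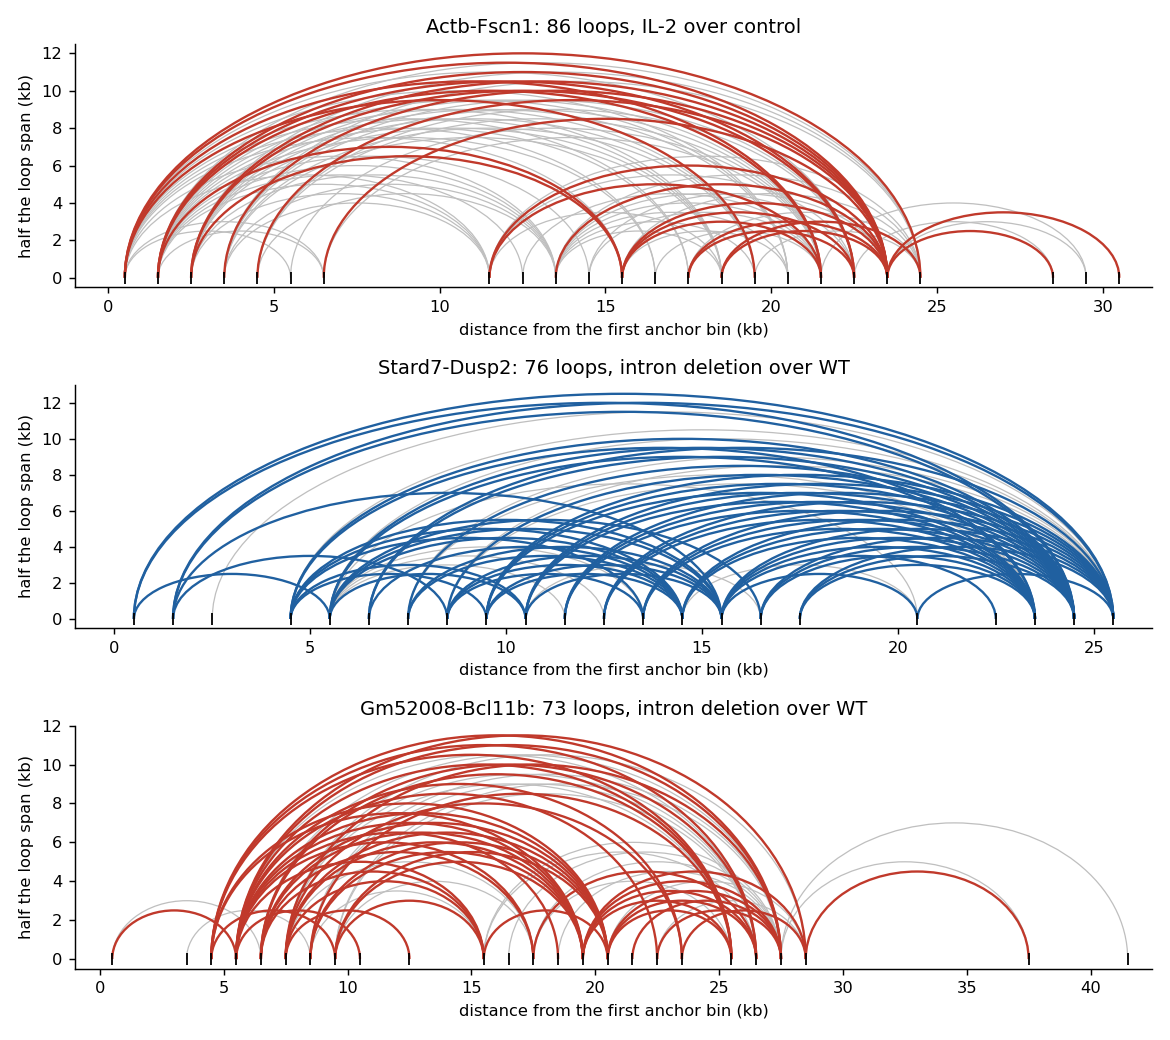
Loops of 3 neighbourhoods as arcs over the distance from the first anchor bin (kb), with the arc height equal to the loop span divided by 2 (kb) and ticks at anchor bins. Red arcs rose and blue arcs fell: 26 of 86 rose with IL-2 at Actb, 63 of 76 fell in the intron deletion at Dusp2 and 49 of 73 rose in it between Gm52008 and Bcl11b.

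The largest falls in the intron deletion lay near Ly6e, a surface protein gene (chr15:74935001-74936000 to chr15:74954001-74955000), with 41 and 20 contacts in intron-deletion cells, 131 and 123 in upstream-deletion cells and 144 and 123 in WT (log2 -1.85 ± 0.20 SE, edgeR adjusted p = 2.30e-16). Next came loops near Rbpj (-1.69), Sik1, a salt-inducible kinase gene (-1.66), between Stard7 and Dusp2 (-1.58), near Tg (-1.18), Grap, an adaptor protein gene (-1.18), and Cd5, an inhibitory T cell receptor (-1.14). The loop near Sik1 had 20 and 21 contacts in intron-deletion cells, 35 and 36 in upstream-deletion cells and 79 and 81 in WT, and in the upstream deletion its log2 of -0.90 missed the threshold (edgeR adjusted p = 0.0542). Fallen loops with 20 contacts in a library sit at the listing floor.

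In the upstream deletion 3 of the 4345 intergenic loops passed the threshold against WT (0.069%). A 15 kb loop beyond Tnfaip3 had 40 and 53 contacts in the upstream deletion, against 23 and 29 in WT (log2 1.10 ± 0.25 SE, edgeR adjusted p = 0.0224). A 6 kb loop within the lncRNA gene Gm19585, far from Satb1, a chromatin organiser, had 49 and 46 against 35 and 22 (log2 1.02 ± 0.24 SE, edgeR adjusted p = 0.0349). A 6 kb loop near Il10rb, a cytokine receptor gene, had 27 and 27 against 68 and 67 (log2 -1.05 ± 0.25 SE, edgeR adjusted p = 0.0340). Of all shared loops 0.0785% passed the threshold, 0.0464% as rises and 0.0321% as falls, so the share of intergenic loops was near the background. DESeq2 called 0 of the intergenic loops. Without either WT library 0 of the 4345 loops passed, without the upstream-deletion IL-2 library 1 and without its control 0, and without either intron-deletion library 11 rose and 8 fell. Scaling to all listed contacts, which moved the median of all shared loops by 0.29, gave 14 rises and 0 falls. Both deletions are compared with the same 2 WT libraries.

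The coverage of the anchors, the deposited number of reads in a bin, moved in the same direction as the contacts. Of the 135 IL-2 rises 134 had higher coverage with IL-2 at both anchors, and of the 33 falls 32 had lower coverage at both. The median rise was 0.66 in contacts and 0.38 in coverage of an anchor, and the median fall -0.68 and -0.30. In the intron deletion 332 of the 358 rises and 287 of the 301 falls had both anchors moving the same way, with medians of 0.82 and 0.55 for rises and -0.80 and -0.57 for falls.

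When contacts were set against the product of the 2 anchors' coverage, 11 loops rose and 107 fell with IL-2. The Actb, Gzmb, Cish and Socs1 neighbourhoods then had medians of -0.27, -0.25, -0.50 and -0.54, and the loops named above for Pim1, Arid5a, Mllt6, Nabp1, Actb, Map3k8 and Fasl were below 0. In the intron deletion that measure gave 331 rises and 240 falls, with the signs of the Gm52008 (-0.77), Cd8a (-0.57), Dusp2 (0.71) and Rbpj (1.17) medians turned round. The directions given for contacts are therefore those of the counts, and not of contacts divided by the product of both anchors' coverage. That product takes off the coverage changes of both anchors together. Counts under that measure are not given for all shared loops, so they are no result about intergenic loops in particular. The median changes of called loops given above were larger in contacts than in the coverage of a single anchor.

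As single bins, 685 of the 2817 anchors gained and 774 lost coverage in the intron deletion (51.8%, against 46.2% of all 18580 shared bins). Without the WT IL-2 library 737 of them were called in either direction and without the WT control 826. In the upstream deletion 52 gained and 14 lost coverage (2.34%, against 1.69% of all shared bins, of which 1.21% gained and 0.484% lost), with 0 or 1 calls without a WT or an upstream-deletion library and 1272 or 1271 without an intron-deletion library. With IL-2, 0 of the 2817 anchors and 0% of all bins passed in edgeR, although 1199 anchors had an unadjusted p below 0.05. DESeq2 called 298 anchors higher and 181 lower with IL-2. Without the IL-2 library of the intron deletion edgeR called 904 higher and 774 lower, and without its control 903 and 774.

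**Figure D5:**
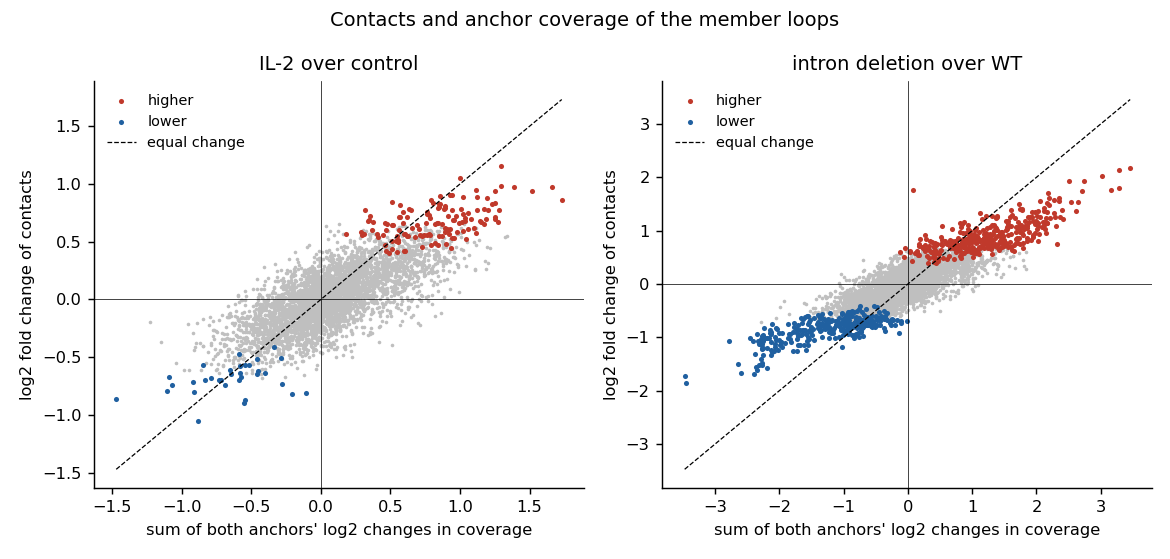
Log2 fold change of contacts (y axis) against the sum of the log2 changes in coverage of both anchors (x axis) for each intergenic loop, with IL-2 over control and with intron deletion over WT; red loops rose, blue loops fell, and the dashed line marks equal change. Loops that rose with IL-2 lie at positive coverage sums, most of them under the line.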

How the data were processed

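The 6 HiChIP libraries were used; the other 19 samples of the series, ChIP-seq, were not analysed here. Reads went through CASAVA, Bowtie2 2.2.6 and HiC-Pro on mm10, per the submitters' processing notes. As deposited, the tables hold contact counts per pair of 1 kb bins and coverage counts per bin, both raw whole numbers, per the file headers; no listed pair had under 20 contacts or was closer than 5 kb. The sources used here do not name the loop caller's version. Genes came from RefSeq (GRCm38.p6, 21900 protein-coding); promoter windows on chromosome 18 were left out. Contacts and coverage were tested with edgeR 4.0.16 (R 4.3.3; quasi-likelihood, TMM) over all 28033 shared loops or 18580 shared bins, with additive genotype and treatment terms (2 residual degrees of freedom) and Benjamini-Hochberg adjustment at 0.05; SE is the standard error. For loops the spread was pooled over all loops. Alternatives were DESeq2 1.42.0, its size factors, scaling to listed totals, a mean of 30 contacts, an offset for depth-scaled anchor coverage, other distance and gene limits, and each library left out. On simulated counts, 61 of 100 loops changed by 0.8 (log2) and 4 of 100 changed by 0.4 were recovered for IL-2. Members, 11 gene lists and marker lists were chosen with earlier results of these data known; the IL-2 counts of 1 list are not reported here. Loops were named by size of change (up to 10 rises and falls per comparison moving the same way throughout, 1 per neighbourhood), by mean contacts, by gene list (3 each) and by microRNA anchors; other loops and neighbourhoods were chosen after their values were seen.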

Additional observations from a re-analysis of the deposited data

Results flagged for a closer look

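The loop beside Pim1 (chr17:29500001-29501000 to chr17:29506001-29507000) responded to IL-2 less in the intron deletion than in the other genotypes. A term for the IL-2 response of the intron deletion against that of the upstream deletion and WT, chosen after seeing the data, was -2.21 ± 0.38 (log2, SE; edgeR adjusted p = 1.18e-04 over 28033 loops). The IL-2 and control libraries held 50 and 45 contacts in intron-deletion cells, 97 and 25 in upstream-deletion cells and 112 and 27 in WT. The same term passed the threshold at 10 of all shared loops for the intron deletion and at 0 for the upstream deletion and for WT, where 164 and 146 intergenic loops had an unadjusted p below 0.05; DESeq2 was not run for it. The fit leaves 1 residual degree of freedom, and each response rests on a single pair of libraries.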

How the results depend on the processing

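Limits come first. Each genotype and treatment had 1 library, loops were listed from 20 contacts, and loops of a neighbourhood share anchors, so counts of loops are not counts of independent events. The labels carry no replicate numbers to pair libraries by. With genotype in the fit as a block, the treatment term compares IL-2 with control within genotypes. At a median of 32 contacts in the shallowest library, changes under about 0.4 (log2) were rarely called in simulated data.
Leaving out 1 library at a time gave 5 to 326 called intergenic loops with IL-2, 160 to 681 for the intron deletion and 0 to 19 for the upstream deletion, and 0 to 1678, 737 to 2011 and 0 to 1272 called anchor bins in the same order of comparisons. DESeq2 called 0, 51 and 0 loops and 479 anchor bins for IL-2 and 128 for the upstream deletion. Loops of 10 kb or more gave 68 calls for IL-2, 260 for the intron deletion and 1 for the upstream deletion. Loops with both anchors 5 kb or more from genes gave 93 for IL-2, and loops with no annotated gene gave 370 for the intron deletion and 1 for the upstream deletion. In the upstream deletion, listed totals gave 14 calls, a mean of at least 30 contacts 10 and the offset for anchor coverage 9. The DESeq2 size factors kept all counts of called loops within 1.5 times.
Of 65 called log2 values of named loops under 9 alternatives each (585 in all), 545 kept their sign, 321 stayed past the threshold and 224 did not. The 40 that turned round did so under the offset for anchor coverage, an offset that divides contacts by the product of both anchors' coverage. With IL-2 the log2 values then were -0.27 near Arid5a, -0.39 near Mllt6, -0.77 near Nabp1, -0.38 near Map3k8, -0.31 near Fasl, -0.83 at Glb1 and Ccr4, -0.15 near Pim1, -0.34 near Cish, -0.076 at Il7r, -0.16 near Rasgrp1 and -0.068 at Irf8. At Actb they were -0.15, -0.086 and -0.088. Of the falls, the Igh loop near Adam6b was at 0.61, Tnfaip3 at 0.10 and 0.14, Btg2 at 0.23 and 0.35, Tcf7 at 0.18 and Zfp36l2 at 0.12. In the intron deletion the values were -1.28 near Fam240a, -1.12 near Slc6a19, -0.9995 near 4933412E24Rik, -0.55 near Gm52008, -0.89 at Il6st, -0.49 near Lyst, -0.70 near Peli1, -0.24 near Olig3, -0.71 near 1700056E22Rik and -0.24 near 4930512M02Rik. They were 1.58 near Ly6e, 0.71 near Rbpj, 0.93 near Sik1, 0.62 at Stard7 and Dusp2, 0.74 near Dusp2, 0.77 near Tg, 0.39 near Cd5 and 0.11 near Eloa. In the upstream deletion Tnfaip3 was at -0.077. The cause was not tested.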
